A study of Homo sapiens with 6 samples.

Results

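Transforming growth factor beta (TGF-beta) signalling was followed at the messenger RNA level through 10 genes of its core machinery: the receptor genes TGFBR1 and TGFBR2, the signal-carrying SMAD genes SMAD2, SMAD3 and SMAD4, the inhibitory SMAD genes SMAD6 and SMAD7, the nuclear corepressor genes SKI and SKIL, and the ubiquitin ligase gene SMURF2. A gene was represented by the array probe sets that the platform annotation gives to that symbol and to no other, and all 10 were found, with 121 probe sets of 224320 and as 10 of 18656 genes. The set was proposed because SMAD7, a reported target of the miR-25 family, had been seen to differ between the groups compared here, so the differences of the 10 genes are given as a description and without a test.

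The cells were AGS, an established human gastric adenocarcinoma line, in both groups. One group (3 arrays) received an anti-miR against miR-25-3p, an oligonucleotide that pairs with the mature microRNA and blocks it. The control group (3 arrays) received a non-targeting RNA. Per the labels' protocols both groups were transfected with the lipid reagent oligofectamine, a second time after 24 h, and were harvested for total RNA at 48 h from the first round. By their titles the 3 samples in a group are biological replicates, all of 1 cell line in transient transfection. Mature miR-25-3p was not measured on these arrays, so the degree of its inhibition is not known from them.

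TGF-beta binds TGFBR2, a serine/threonine kinase that recruits and activates TGFBR1. TGFBR1 then phosphorylates SMAD2 and SMAD3, which join SMAD4 and enter the nucleus to act on target genes through short DNA elements. SMAD7 and SMAD6 occupy receptors and bring in ligases such as SMURF2, SKI and SKIL hold SMAD complexes in a repressed state, and SMAD7 and SKIL are themselves induced by the pathway, which gives negative feedback. In epithelia the pathway is known for growth arrest and, in carcinoma cells, for mesenchymal gene programmes.

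MicroRNAs find their targets mainly through bases 2 to 8, the seed, so the inhibited microRNA is shown with the mature human microRNAs that have the same seed in RefSeq (GRCh38.p14), 6 in all. Capitals mark the seed, 5′ to 3′.
hsa-miR-25-3p: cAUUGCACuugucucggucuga
hsa-miR-92a-3p: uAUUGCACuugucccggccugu
hsa-miR-92b-3p: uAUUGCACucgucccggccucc
hsa-miR-32-5p: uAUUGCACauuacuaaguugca
hsa-miR-363-3p: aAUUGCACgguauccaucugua
hsa-miR-367-3p: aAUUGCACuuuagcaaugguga
The mature miR-25-3p lies at chr7:100093571-100093592 on the minus strand. All 6 carry AUUGCAC at the seed and differ from one another outside it. Seed sites in the transcripts of the 10 genes were not searched here.

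Values are log2 expression, averaged over the probe sets of a gene on each array. The arrays were much alike, with correlations of gene values of 0.9904 to 0.9948 and array medians of 6.02 to 6.07. Control replicate 1 had the lowest mean correlation with the others, 0.9915. Epithelial markers were bright: 10 of 10 lay above the median gene value of 5.77, with list means of 9.10 to 9.13 on control arrays and 9.09 to 9.16 on inhibitor arrays, although the cadherin gene CDH1 was at only 6.10 and 6.11. Fibroblast markers had list means of 4.37 to 4.54 and 4.45 to 4.50 in the same order, and 2 of 8 lay above the median gene, COL1A1 at 6.39 and 6.37 and PDGFRA at 6.35 and 6.47, while the dimmest were DCN at 2.56 and 2.72 and LUM at 2.28 and 2.37. Leukocyte markers had 4.12 to 4.32 and 4.30 to 4.37. Of the 5, CD68 alone lay above the median gene, at 6.12 and 6.01, PTPRC was the dimmest at 2.55 and 2.62, and CD14, at 4.25 and 4.71, was the 1 higher gene at an unadjusted p under 0.05 in limma. Endothelial markers had 3.60 to 3.80 and 3.55 to 3.60, with 0 of 5 above the median gene, and PECAM1, at 3.61 and 3.15, was the 1 lower gene at that p. Limma called 0 of 18656 genes at an adjusted p of 0.05, with a smallest adjusted p of 0.79, while 1141 genes (6.12%) had an unadjusted p under 0.05, 2.95% higher and 3.16% lower. All 10 genes passed a filter that removed the 30% of genes with the lowest values.

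The inhibitory SMAD gene SMAD7 had the lowest difference of the 10. Its values in control replicates 1 to 3 were 6.31, 6.28 and 6.44, and in inhibitor replicates 1 to 3 they were 5.90, 6.18 and 5.93. Every inhibitor array lay below every control array, with a gap of 0.11 between the nearest pair, inhibitor replicate 2 and control replicate 2. The means were 6.34 ± 0.080 and 6.003 ± 0.15 (SD, n = 3 each), a difference of -0.34 (SE 0.10) or 1.27-fold lower with the inhibitor. Of all genes, 1.08% had a lower difference, but SMAD7 was chosen on this contrast, so nothing is read from that share. In bulk RNA, fewer cells that make a transcript and less of it per cell cannot be told apart.

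The sign was shared by all 7 probe sets of SMAD7, and their differences ran from -0.56 to -0.17. Of the 1152 genes with 7 probe sets, 2.69% had all of them negative. SMAD7 was chosen for its difference and its probe sets were read on the same arrays, so that share is no test. In the order of their identifiers the differences were -0.18, -0.17, -0.31, -0.39, -0.33, -0.46 and -0.56. Groups did not overlap at 3 of the 7, those with -0.31, -0.33 and -0.46, where 6.32% of all probe sets had lower arrays without overlap and 5.89% higher ones. The last of the 7 leaned on inhibitor replicate 3, at 4.65 against 6.11 and 6.22 in the other inhibitor arrays and 5.97 to 6.42 in control arrays. The brightest probe set had a smaller difference of -0.17 (SE 0.14), with means of 7.48 and 7.32, and its arrays overlapped.

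SMAD6, the other inhibitory SMAD gene and mainly known as a brake on bone morphogenetic protein (BMP) signalling, did not share this order. Its values were 6.38, 6.47 and 6.48 in control and 6.18, 6.54 and 6.54 in inhibitor arrays. Inhibitor replicate 1 was the lowest of the 6 and the other two inhibitor arrays were the highest, so the groups overlapped. The difference was -0.019 (SE 0.12), and 6 of its 10 probe sets were negative. Without inhibitor replicate 1 the difference of SMAD6 became 0.10, and with its brightest probe set 0.12. With the median of probe sets it was -0.24 (SE 0.11), close to the -0.26 (SE 0.11) of SMAD7 under that setting.

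**Figure D1:**
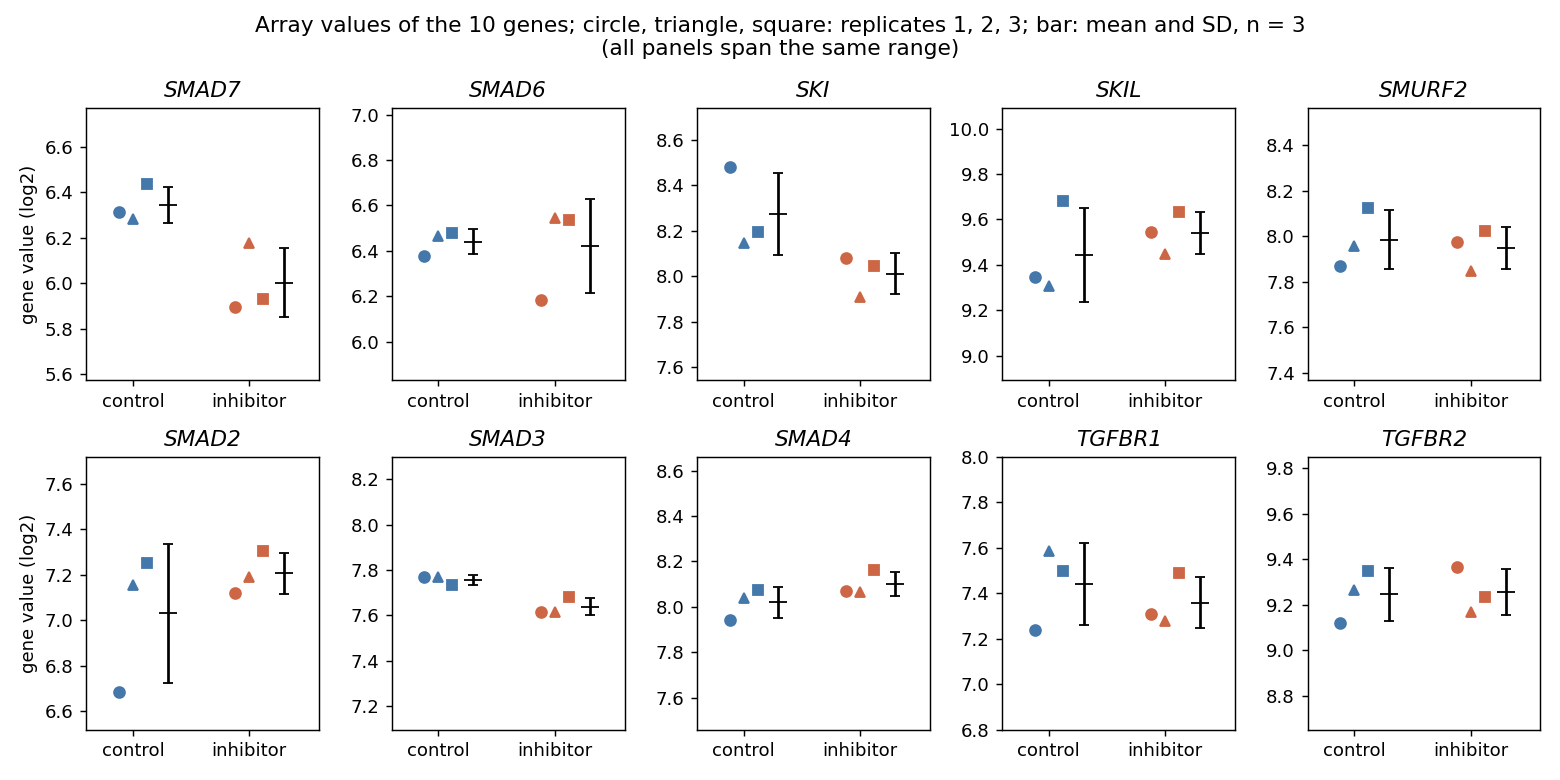
Gene values (log2, vertical axis) of the 10 genes on the 3 control arrays (blue) and the 3 inhibitor arrays (orange), with mean and SD beside them; every panel spans the same range. The inhibitor arrays sit wholly below the control arrays for SMAD7, SKI and SMAD3 and overlap them for the other 7 genes.

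The stretch before the start of these genes was read because SMAD complexes bind short DNA elements, the palindrome GTCTAGAC and the shorter CAGAC. RefSeq promoter windows (GRCh38.p14) were found for 9 of the 10 genes, and the 250 bases before the outermost start were searched on both strands. Other starts of a gene were not searched: SMAD7 has 3 windows in all and SMAD6 has 1. The 2 inhibitory SMAD genes are printed 5′ to 3′ on the gene's strand, with matches in capitals: SMAD7 at chr18:48950966-48951215, minus strand, and SMAD6 at chr15:66701986-66702235, plus strand.
SMAD7: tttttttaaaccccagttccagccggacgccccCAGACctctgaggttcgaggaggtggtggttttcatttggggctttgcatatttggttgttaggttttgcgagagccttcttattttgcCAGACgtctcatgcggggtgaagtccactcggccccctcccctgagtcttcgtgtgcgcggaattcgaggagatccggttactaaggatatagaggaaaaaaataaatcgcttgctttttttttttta
SMAD6: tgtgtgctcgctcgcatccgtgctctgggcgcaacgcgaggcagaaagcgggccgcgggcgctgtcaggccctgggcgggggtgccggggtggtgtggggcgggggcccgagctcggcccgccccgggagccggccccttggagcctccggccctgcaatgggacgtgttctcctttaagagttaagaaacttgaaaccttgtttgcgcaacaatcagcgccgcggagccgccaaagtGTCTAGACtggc
SMAD6 held 1 palindrome, which begins 12 bases before the start and which 0.182% of 35116 windows of this length held. The outermost window of SMAD7 held CAGAC at 217 and 128 bases before the start and no palindrome. Whether its other windows hold the palindrome is not known from this search. SKIL held 1 CAGAC on the opposite strand, and the outermost windows of the other 6 genes searched held neither motif. CAGAC on either strand was found in 38.0% of all windows, so its presence is common. The palindrome does not contain CAGAC on either strand. A match is a run of letters and not a site shown to be bound, and a relation of matches to the array values was not tested.

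The corepressors SKI and SKIL are close relatives that bind SMAD complexes and recruit histone deacetylases. SKI was at 8.48, 8.15 and 8.20 in control replicates 1 to 3 and at 8.08, 7.91 and 8.05 in inhibitor replicates 1 to 3. The groups did not overlap, by a gap of 0.069, and control replicate 1 stood above the other control arrays. The means were 8.27 ± 0.18 and 8.01 ± 0.089 (SD, n = 3 each), a difference of -0.26 (SE 0.11) or 1.20-fold lower. All 7 probe sets of SKI were negative, from -0.66 to -0.11, and 1 had non-overlapping arrays. Of genes with 7 probe sets, 2.69% had all of them negative, and 6.32% of all probe sets were lower without overlap. SKI belongs to a set chosen on this contrast, so nothing is read from these shares. Without control replicate 1 the difference of SKI was -0.16.

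SKIL was at 9.35, 9.31 and 9.68 in control and at 9.54, 9.45 and 9.63 in inhibitor arrays. Control replicate 3 was the highest and the other control arrays the lowest of the 6. The difference was 0.097 (SE 0.12), with 6 of 10 probe sets positive and a range from -0.37 to 0.39. Its brightest probe set, with a mean of 13.24, was almost level between groups at -0.020. Without control replicate 3 the difference was 0.22, and without control replicate 2 it was 0.028.

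SMURF2, the ligase that inhibitory SMADs carry to the receptor, was at 7.87, 7.96 and 8.13 in control and 7.98, 7.85 and 8.02 in inhibitor arrays. The 2 groups covered nearly the same range. The difference was -0.036 (SE 0.10), with 9 of 19 probe sets negative. It became 0.11 with the median of the probe sets.

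Among the signal-carrying SMAD genes, SMAD3 alone had non-overlapping arrays. SMAD3 was at 7.77, 7.77 and 7.73 in control and 7.62, 7.62 and 7.68 in inhibitor arrays. The spread within its groups was small: the pooled SD was 0.031, and 0.922% of genes had a smaller one. The means were 7.76 ± 0.021 and 7.64 ± 0.038 (SD, n = 3 each), a difference of -0.12 (SE 0.082) or 1.09-fold lower. The moderated SE exceeds what the replicates of SMAD3 alone would give because limma draws each variance towards that of all genes. Of its 15 probe sets 11 were negative, 2 lay lower without overlap and 1 higher without overlap. Over all probe sets 6.32% lay lower without overlap and 5.89% higher.

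SMAD2, which carries the same signal as SMAD3 but does not bind DNA in its main form, leaned the other way. It was at 6.68, 7.16 and 7.25 in control and 7.12, 7.19 and 7.30 in inhibitor arrays. Control replicate 1 stood alone below the other 5 arrays, which overlapped. The difference was 0.18 (SE 0.15), and without control replicate 1 it was 0.00088. Positive differences were found at 15 of 19 probe sets, up to 0.99 at one whose control arrays (4.91, 5.37 and 5.69) lay below its inhibitor arrays (6.21, 6.62 and 6.12). The other probe set with non-overlapping higher arrays had 5.72, 6.94 and 7.10 in control and 7.15, 7.12 and 7.45 in inhibitor arrays. Such higher arrays were seen for 5.89% of all probe sets.

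SMAD4, the shared partner of the receptor-activated SMADs, was at 7.94, 8.04 and 8.08 in control and 8.07, 8.07 and 8.16 in inhibitor arrays, so the groups overlapped. The difference was 0.080 (SE 0.087). Its probe sets were split, with 6 positive, 7 negative and 1 level, from -0.27 to 0.84, and the brightest had -0.16. A probe set annotated to both ELAC1 and SMAD4 was not counted and had a difference of 0.14.

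Neither receptor gene had separate groups. TGFBR1 was at 7.24, 7.59 and 7.50 in control and 7.31, 7.28 and 7.49 in inhibitor arrays, with a difference of -0.082 (SE 0.12) and 7 of 11 probe sets negative. One of these, whose mean was 8.14 in the control and 7.60 in the inhibitor group, had a difference of -0.54 without overlap. The difference of TGFBR1 was -0.34 with the median of its probe sets and -0.0094 without control replicate 2. TGFBR2 was at 9.12, 9.27 and 9.35 in control and 9.37, 9.17 and 9.23 in inhibitor arrays, a difference of 0.010 (SE 0.10). Its brightest probe set was at 11.24 in control and 10.99 in inhibitor arrays, a difference of -0.25 without overlap, while the other 8 ranged from -0.15 to 0.17.

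**Figure D2:**
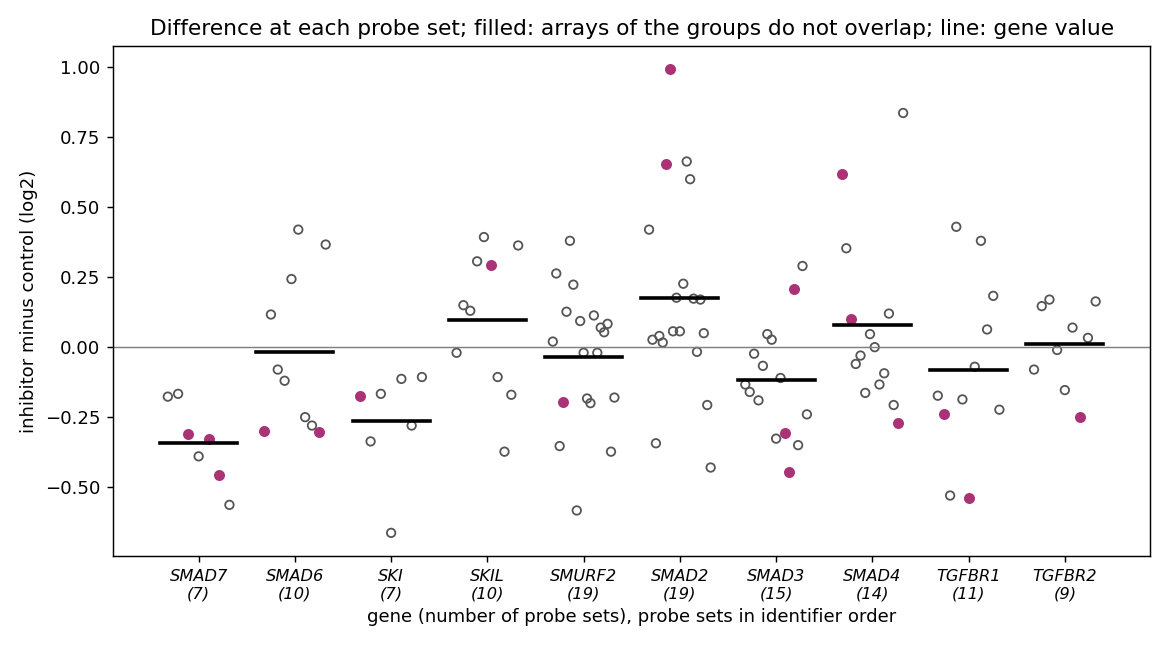
Inhibitor minus control difference (log2, vertical axis) at each probe set of the 10 genes, in identifier order within a gene; filled points have arrays that do not overlap between groups, and the line is the difference of the gene value. All 7 points of SMAD7 and all 7 of SKI lie below 0, while the other genes have points on both sides, up to 0.99 in SMAD2.

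Over the 10 genes, 6 differences were negative and 4 positive, with a median of -0.027 beside 0.0021 over all genes, of which 49.3% were negative. Non-overlapping arrays were seen for 3 of the 10, all lower, where 12.9% of all genes had non-overlapping arrays, 7.68% lower and 5.19% higher; the set was chosen on this contrast, so nothing is read from that count. The mean of the 10 gene values was 7.80 ± 0.084 in control and 7.75 ± 0.048 in inhibitor arrays (SD, n = 3 each), with overlap. The genes with the array pattern most like that of SMAD7, among 8609 with at least 4 probe sets and a value above the median gene, were the growth factor gene HDGF, LRRC41 and the corepressor gene TRIM28. Their Pearson correlations with SMAD7 over 6 arrays were 0.995, 0.992 and 0.991, and 21 of the 8609 exceeded 0.95; the 6 points share the split into 2 groups. The differences of these genes were -0.081 (SE 0.081), -0.23 (SE 0.098) and -0.12 (SE 0.083). Among the 10, SMAD3 had the highest such correlation, 0.69, and SMAD4 the lowest, -0.55.

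The wider pathway was described with 91 further genes listed by role from general knowledge. In limma 0 of the 91 passed the threshold adjusted over all genes, and 3 higher and 3 lower genes had an unadjusted p under 0.05, which is 6.59% of the 91 beside 6.12% of all genes. Non-overlapping arrays were seen for 23 of the 91, 16 lower and 7 higher. That share is 25.3%, beside 12.9% of all genes and 16% of genes brighter than the median gene. By list it ran from 8.33% for SMAD partners and adaptors to 44.4% for the transcriptional targets of TGF-beta. With only the brightest probe set per gene 8 of the 91 did so, 8.79% beside 12.2% of all genes, and with the median of probe sets 13 did, 14.3% beside 11.8%. With 1 array left out the count was 26 to 34, or 28.6% to 37.4%, but fewer arrays make separation easier and 21.1% to 24.9% of all genes then did so too. Their median difference was -0.025. Of the 35 genes named from these lists by the fixed rule, the difference changed sign under at least 1 alternative in 16 and moved by over 1.5 times with its sign kept in 17.

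Of the genes listed as transcriptional targets of TGF-beta, 14 of 18 measured had a negative difference. This was so for 49.3% of all genes and 52.2% of genes brighter than the median gene. Their median was -0.084, and 0 passed the threshold. In limma 2 lower and 0 higher genes had an unadjusted p under 0.05, beside 3.16% lower and 2.95% higher over all genes. Activation of receptors and SMAD proteins was not measured on these arrays, so the signs are not read as pathway output. The mean over the 18 was 6.38, 6.33 and 6.29 in control and 6.24, 6.28 and 6.27 in inhibitor arrays, so the groups did not overlap but nearly met. Non-overlapping arrays were seen for 6 lower and 2 higher genes, 44.4% of the 18 beside 12.9% of all genes and 16% of brighter ones. The 6 lower genes all lie among the 12 brighter targets, where 11% of brighter genes had lower arrays without overlap. SNAI1, a repressor of epithelial genes, was at 6.62, 6.60 and 6.56 in control and 6.34, 6.24 and 6.34 in inhibitor arrays, a difference of -0.29 (SE 0.084) with 3 of 3 probe sets negative. COL4A1, a basement membrane collagen chain, was at 6.81, 6.73 and 6.69 against 6.61, 6.48 and 6.47, a difference of -0.23 (SE 0.089) with 42 of 52 probe sets negative. The differences of SNAI1 and COL4A1 exceeded the SD within either group, but they were named for the largest negative moderated statistics of the list. Neither passed the threshold.

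The other 4 lower targets without overlap were picked out after their values were seen. BHLHE40, a transcriptional repressor, had -0.18 (SE 0.086). The matrix protein gene THBS1 had -0.16 (SE 0.094), the cell cycle inhibitor gene CDKN2B had -0.14 (SE 0.084) and the transglutaminase gene TGM2 had -0.079 (SE 0.087). On the positive side, SNAI2, a relative of SNAI1, had 0.21 (SE 0.11) at a low control mean of 3.42 and 0.11 without control replicate 3. PTHLH, which encodes a parathyroid hormone-related peptide, had 0.15 (SE 0.086) at 3.24. Of the 12 targets brighter than the median gene 11 were negative, against 3 of the 6 dimmer ones, a split made after the values were seen. The median of the 18 was -0.037 with the brightest probe sets, and leaving out single arrays gave -0.107 to -0.041, the last without control replicate 2.

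**Figure D3:**
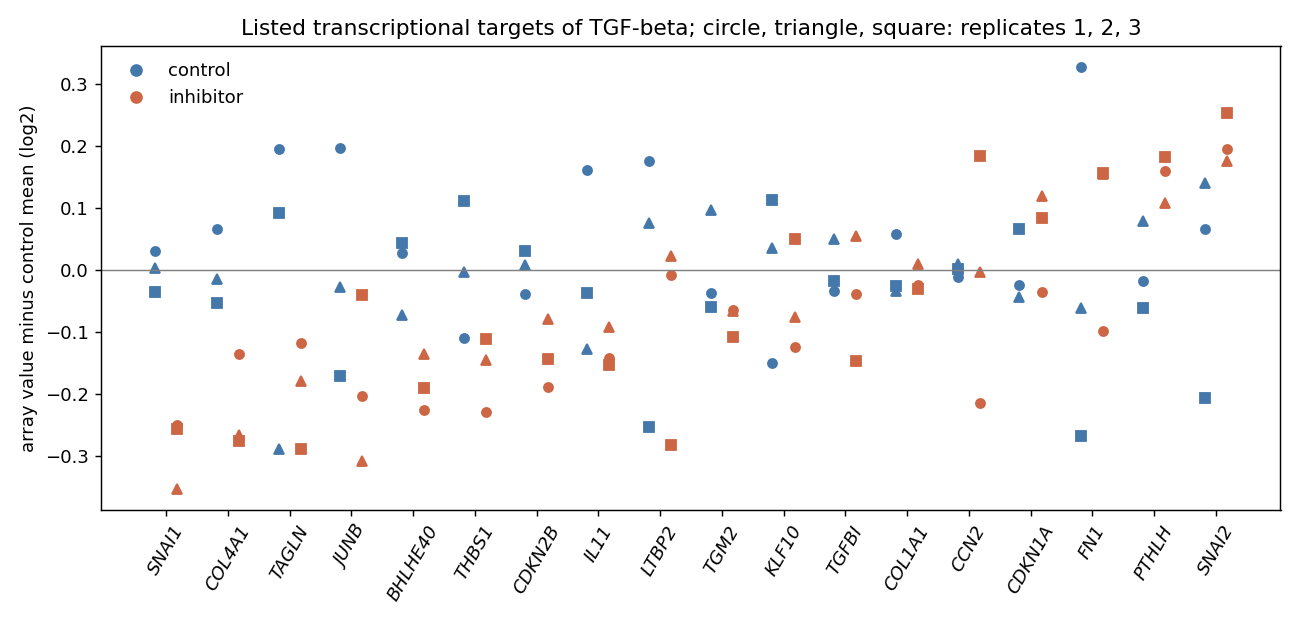
Array values of the 18 measured transcriptional targets of TGF-beta minus the mean of the control arrays (log2, vertical axis), control in blue and inhibitor in orange, ordered by their difference. The inhibitor points lie wholly below the control points for 6 genes, SNAI1 and COL4A1 among them, and wholly above for SNAI2 and PTHLH.

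Listed targets of BMP signalling had 6 negative and 2 positive differences of 8, a median of -0.081, and 0 calls, with 0 at an unadjusted p under 0.05 in limma. ID1, an inhibitor of basic helix-loop-helix factors, had -0.12 (SE 0.10), which was -0.19 without control replicate 1 and -0.0625 without inhibitor replicate 1, and the homeobox gene MSX2 -0.10 (SE 0.082, without overlap). The hepcidin gene HAMP had 0.14 (SE 0.088, without overlap) and ID2 0.075 (SE 0.12), whose sign turned without control replicate 1. The BMP list median was 0.0043 without inhibitor replicate 3.

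Ligand genes were evenly split, with 5 positive and 6 negative of 11. Their median of -0.022 turned positive under 5 of 15 alternatives. There were 0 calls, and 1 higher gene had an unadjusted p under 0.05 in limma, beside 2.95% of all genes. The largest positive evidence was for NODAL, at 3.60, 3.61 and 3.78 in control and 3.82, 3.96 and 4.08 in inhibitor arrays, 0.29 (SE 0.10), on values far below the median gene, and the difference was 0.020 with its brightest probe set and 0.55 with the median of its probe sets. INHBB, an activin subunit gene, had 0.12 (SE 0.11), turning to -0.13 with its brightest probe set. BMP2 had -0.16 (SE 0.086, without overlap), which was -0.037 with its brightest probe set, and TGFB2 -0.18 (SE 0.11), but 0.017 when its probe sets were combined by their median. Of 8 genes that store or antagonise ligands 5 were negative, with 0 calls and 0 at an unadjusted p under 0.05. The latent TGF-beta binding protein genes LTBP3 and LTBP4 had -0.18 (SE 0.11) and -0.14 (SE 0.083), both without overlap, and both turned positive with the brightest probe set, to 0.13 and 0.093. The BMP antagonist gene CHRD had 0.22 (SE 0.12), which was 0.13 without inhibitor replicate 1 and 0.14 without control replicate 3, and the activin antagonist gene FST 0.018 (SE 0.12), which was -0.27 with the median of its probe sets.

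Other receptor genes had 5 positive and 6 negative differences of 11, a median of -0.044, 0 calls and 0 at an unadjusted p under 0.05. The coreceptor gene TGFBR3 had -0.14 (SE 0.088, without overlap) and the activin receptor gene ACVR1C -0.18 (SE 0.11), which was 0.11 with its brightest probe set. ACVRL1 had 0.14 (SE 0.10), turning to -0.097 without the dimmest 30% of probe sets, and BMPR2 0.10 (SE 0.098), turning to -0.017 with its brightest. Of the 3 other SMAD genes, which carry BMP signals, SMAD9 was at 4.59, 4.31 and 4.60 in control and 4.23, 4.18 and 4.23 in inhibitor arrays, -0.29 (SE 0.10). These values lie below the median gene, 7 of 11 probe sets of SMAD9 were negative, and its brightest probe set gave -0.45. SMAD1 had 0.085 (SE 0.11) and SMAD5 0.012 (SE 0.11), and without control replicate 1 both were negative, at -0.0038 and -0.093. None of the 3 was called, and SMAD9 had an unadjusted p under 0.05 in limma, where 3.16% of all genes were lower at that p.

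Ligases and deubiquitinases that act on SMADs and receptors had 7 positive and 5 negative differences of 12, with a median of 0.033, 0 calls and 0 at an unadjusted p under 0.05. The sign of that median turned under 4 of 15 alternatives, to -0.039 without control replicate 1, -0.016 without inhibitor replicate 3, -0.058 with the brightest probe sets and -0.0071 without the dimmest 30% of probe sets. NEDD4L, a ligase for activated SMAD2 and SMAD3, had 0.24 (SE 0.14) and ITCH 0.17 (SE 0.096, without overlap), and both turned negative with the brightest probe set, at -0.14 and -0.067. WWP2 had -0.13 (SE 0.090) and STUB1 -0.12 (SE 0.085, without overlap). Of 8 other negative regulators 5 were positive, with a median of 0.044 and 0 calls. In limma 2 of the 8 were higher at an unadjusted p under 0.05, beside 2.95% of all genes. The 2 regulators were FKBP1A, which holds TGFBR1 inactive, at 7.08, 7.37 and 7.19 in control and 7.40, 7.45 and 7.72 in inhibitor arrays (0.31, SE 0.12), and the receptor-associated STRAP at 9.64, 9.63 and 9.73 against 9.87, 9.81 and 9.94 (0.21, SE 0.087). Both had separate groups, but with the brightest probe set the differences were 0.060 and 0.070. The phosphatase gene PPM1A had -0.10 (SE 0.11), which became 0.057 with the median of probe sets, and the corepressor gene TGIF2 -0.051 (SE 0.094), which became 0.022 without inhibitor replicate 3.

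SMAD partners and adaptors were balanced, with 6 of 12 positive, a median of -0.00022 that turned positive under 6 of 15 alternatives, 0 calls and 0 at an unadjusted p under 0.05. The transcription factor gene SP1 was at 7.77, 7.86 and 7.73 in control and 7.52, 7.56 and 7.67 in inhibitor arrays, -0.20 (SE 0.090), without overlap, but -0.013 when its probe sets were combined by their median. The acetyltransferase gene CREBBP had -0.14 (SE 0.11), which was -0.043 without control replicate 1 and -0.23 without control replicate 2. On the other side, ZFYVE16, an endosomal SMAD adaptor, had 0.24 (SE 0.12), which was 0.070 with its brightest probe set, and RUNX3, a gastric epithelial transcription factor, had 0.23 (SE 0.11), which turned to -0.057 with its brightest probe set.

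**Figure D4:**
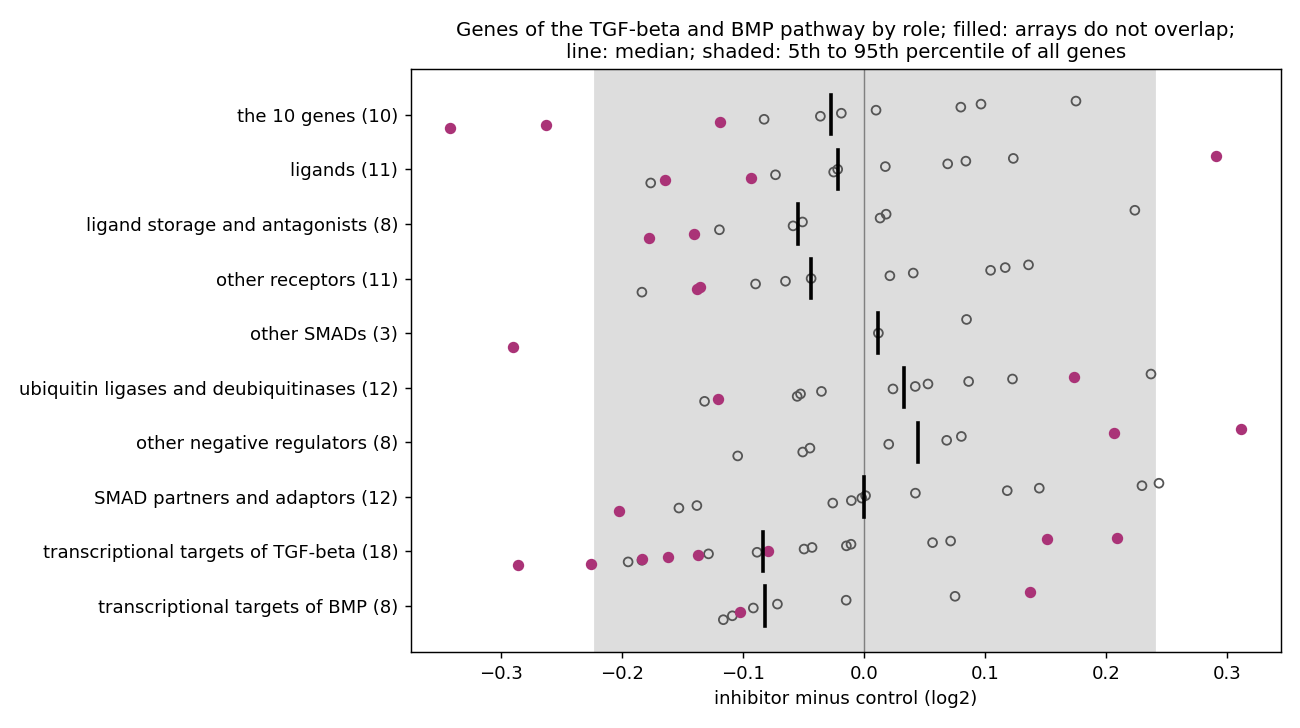
Inhibitor minus control difference (log2, horizontal axis) of the 10 genes and of 91 other pathway genes by role, with the number measured in brackets; filled points have non-overlapping arrays, lines are medians, and the shaded band holds the 5th to 95th percentile of all genes, -0.222 to 0.240. SMAD7, SKI, SMAD9, SNAI1 and COL4A1 lie left of the band and FKBP1A, NODAL and ZFYVE16 right of it, 8 of 101 genes beside 10% of all genes, and the list medians lie between -0.084 and 0.044.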

How the data were processed

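The deposited table gives log2 expression values for 257430 exon-sized probe sets on 6 Affymetrix Human Gene 1.0 ST arrays, rounded to 2 decimals. The authors used RMA with Affymetrix Expression Console and Transcriptome Analysis Console, per the submitters' processing notes, which name no version. RMA equalises array distributions, so a shift shared by most genes would not show. Precision is limited by the number of arrays, and scan dates were not used here.

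The platform annotation gave 1 symbol for 224320 probe sets, several for 10159 and none for 22951; symbols were updated through RefSeq synonyms (2533 of 18701). Gene values are means over probe sets. Inhibitor and control were compared over 18656 genes in limma 3.58.1 (R 4.3.3; lmFit, eBayes, no replicate block, Benjamini-Hochberg over all genes, threshold 0.05). SDs are over arrays, SEs are moderated. An exact test of 3 against 3 arrays cannot go below p = 0.1.

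The 10 genes, the role lists and the alternatives were chosen with earlier results of these data known. From each list the 2 genes with the largest positive and the 2 with the largest negative moderated statistic are named, plus the 3 most correlated with SMAD7. Of 94 listed pathway genes 91 were measured; the others were not analysed here.

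The fit was tested on simulated data. Dim genes were not filtered out in the main comparison, and the alternatives are listed in the closing section.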

Additional observations from a re-analysis of the deposited data

How the results depend on the processing

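Limma called 0 genes under each alternative run except without control replicate 3, with a range of 0 to 1 over the arrays left out, and 0 of the 91 pathway genes under every alternative. The replicate block gave 0 calls, 1161 genes at an unadjusted p under 0.05 and a SMAD7 difference of -0.34 (SE 0.11), so it changed no call. Arrays with the same number, after subtracting group means, correlated at -0.032, -0.040 and 0.17, and were not taken as pairs. SMAD7 stayed negative under all 15 alternatives, from -0.43 to -0.29 when 1 array was left out and at -0.17 with its brightest probe set. SKI and SMAD3 also stayed negative, from -0.33 to -0.16 and from -0.14 to -0.11. The groups of SMAD7, SKI and SMAD3 do not overlap, so leaving out 1 array could not turn these signs. All probe sets of SMAD7 and SKI are negative, so their brightest could not either. These kept signs are therefore no test of the genes. The median of the 10 genes was -0.15 with the brightest probe sets and ran from -0.075 to 0.018 when 1 array was left out. Signs turned under 1 to 4 of the 15 alternatives for SMAD2, SMAD4, SMAD6, TGFBR2, SKIL and SMURF2, and under 0 for TGFBR1. Quantile normalization and subtraction of array medians turned no sign among the 10. The cause was not tested. The alternatives were the replicate block, leaving out each array, 2 normalizations between arrays, 4 ways of choosing or combining probe sets, a filter on dim genes and eBayes with trend and robust settings.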
